A study of Mus musculus with 6 samples.

Results

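The solute carriers described here are the genes whose symbols begin with Slc and a digit, without the families Slc1, Slc3, Slc7 and Slc38, in cultured mouse CD8 T cells. They were kept where the expected read counts of the 6 libraries summed to 200 or more. Of 46517 gene identifiers in the count tables, 343 belonged to such solute carriers and 156 of these reached the threshold, in 38 families. The other 187 stayed under it, 83 of them with no count in any library. They were thus chosen by symbol and by summed counts over both groups. The 4 families left out carry mainly amino acids, but the kept families also include amino acid carriers, among them the glycine transporter Slc6a9 and the large neutral amino acid carriers Slc43a1 and Slc43a2. By symbol the 156 also hold 3 genes that are not carriers: the pseudogene Slc2a4rg-ps, the scaffold Slc9a3r1 and the adaptor Slc4a1ap.

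Naive T cells of C57BL/6J mice, from spleen and lymph nodes, were activated for 3 days on plates coated with anti-CD3 (5 μg/mL), with soluble anti-CD28 (0.5 μg/mL) and IL-2 (100 units/mL). Between day 1 and day 2 the medium was supplemented with the supernatant of sort-purified basophils, themselves kept for 2 days in IL-2 (100 units/mL) and either IL-3 (3 ng/mL) or PBS. There were 3 libraries with IL-3 supernatant and 3 with PBS supernatant, and the comparison asks which transcripts of the activated CD8 T cells differ with the basophils' IL-3. Whether each library is its own mouse or culture is not in the labels, and the p-values below therefore reflect how far these 3 libraries per group scatter, possibly for technical reasons. Nor is it stated whether IL-3 itself was removed from the supernatant, and cells given IL-3 without basophils were not analysed here.

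Solute carriers are membrane proteins that move sugars, organic acids, ions, metals, nucleosides, vitamins and lipids across the plasma membrane or into organelles. Some exchange one solute for another, some couple transport to a sodium or proton gradient, and some let the solute run down its own gradient. Activated T cells are known to rely on the glucose carrier Slc2a1, on lactate carriers of the Slc16 family and on mitochondrial carriers of the Slc25 family, which link the cytosol to the mitochondrial matrix.

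Totals of expected counts, as deposited by the authors, ranged from 17377052 to 22174902 per library, and the 156 genes held 0.792% of all counts. At these depths 3 counts, the limit that a count of 0 allows, are 0.135 to 0.173 CPM (counts scaled to the library total), for counting error only. One transcript, CT010467.1, took 0.433% to 4.51% of a library. All 9 listed markers of CD8 T cells were detected, but 8 of them were lower with IL-3 supernatant and none higher, and their summed level was 3890 to 4091 CPM with PBS against 2683 to 2886 CPM with IL-3 supernatant. The basophil and mast cell list summed to 2.27 to 3.28 CPM with PBS and 0.515 to 0.901 CPM with IL-3 supernatant, with the defining genes Mcpt8, Fcer1a, Ms4a2, Prss34 and Tpsab1 at 0 counts in all 6 libraries. Nearly all of that sum was Kit, with 58, 41 and 49 counts against 9, 18 and 11 (adjusted p = 0.00038), and no other listed gene had more than 1 count in a library. The 2 listed CD4 T cell genes summed to 5.65 to 8.68 CPM against 17.4 to 19.4 CPM, and the higher one was Zbtb7b, with 148, 108 and 85 counts against 377, 375 and 346 (adjusted p = 2.7e-06), while Cd4 had 0 to 15 counts in a library. Lists for B cells, myeloid cells, red cells and NK cells stayed at or under 3.77 CPM in every library, with C1qa, Hba-a1 and Hbb-bt at 0, and all 4 neutrophil genes were at 0. The part of these shifts in the results on carriers was not tested, and in bulk RNA fewer cells of a type and less RNA per cell cannot be told apart.

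Of the 156 genes, 35 rose and 26 fell with IL-3 supernatant, and 95 did not pass the test. The test was edgeR's quasi-likelihood test over 12407 genes with Benjamini-Hochberg adjustment, and a gene was called at an adjusted p below 0.05. The called share was 39.1% of the carriers. It was 30.9% of all genes tested (14.8% higher and 16.1% lower) and 33.2% of the 10710 tested genes that also had 200 or more counts, and the difference between these shares was not tested. The CPM of the groups did not overlap for 87 of the carriers, or 55.8%, against 43.6% of all genes tested. The 43.6% also covers tested genes under 200 counts, and a share without them was not computed. Most changes were small: 49 of the 61 called carriers changed by less than 2-fold, and 102 of the 156 differed by less than 1.25-fold. The median log2 fold change (IL-3 minus PBS supernatant) was 0.016 for the carriers and -0.0047 for all genes, and the median size of the change was 0.21 against 0.20. The count of lower carriers dropped from 26 to 17 without IL-3 supernatant replicate 2. When each library was left out in turn, 36 of the 61 called carriers passed in all 6 fits, 20 of them higher and 16 lower.

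**Figure D1:**
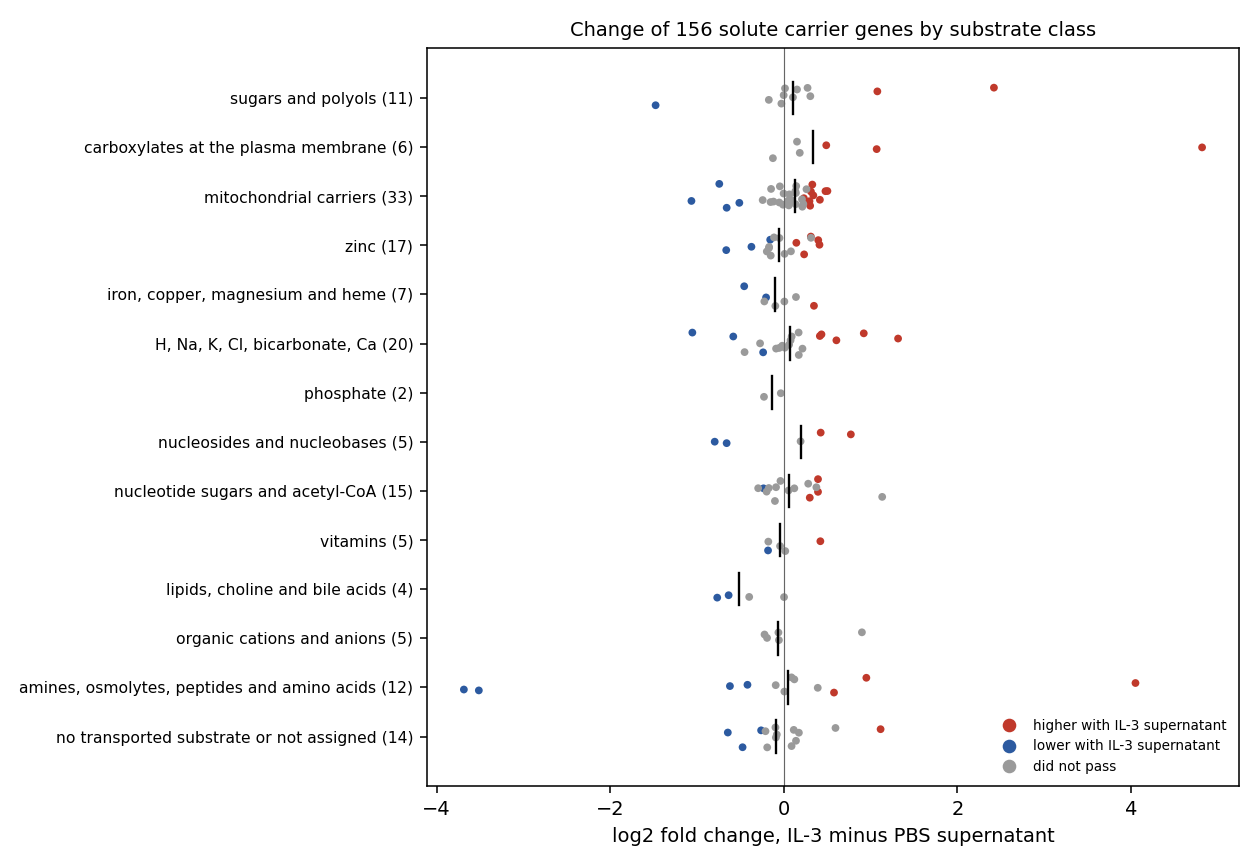
Log2 fold change (IL-3 minus PBS supernatant) of each of the 156 genes by substrate class, 3 libraries per group, with colours for genes called higher, called lower and not passing the test. Most points lie near 0, though not in every class, and the few far from it are spread over several classes in both directions. The median size of the change was 0.66 for nucleosides and nucleobases and 0.52 for lipids and choline, against 0.21 for all 156 genes. It was 0.50 for amines, osmolytes, peptides and amino acids.

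Changes of at least 2-fold that passed the test numbered 12. The 7 higher genes were 4.49% of the carriers, beside 4.34% of all genes tested, and the 5 lower genes were 3.21%, beside 3.44%, so these shares lie near the background. Higher were Slc13a3, Slc15a3, Slc2a6, Slc12a8, Slc35e4, Slc2a8 and Slc16a11. Among the lower were Slc14a1, Slc15a1, Slc2a9 and Slc25a45. Slc2a6, Slc2a8 and Slc13a3 lie on chromosome 2, as do 20 of the 156 genes. Several had passed the 200-count threshold mainly through one group: Slc12a8, Slc13a3, Slc16a11 and the uncalled Slc17a6 had under 100 counts over the PBS supernatant libraries, and Slc14a1, Slc15a1 and Slc2a9 had under 100 over the IL-3 supernatant libraries.

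**Figure D2:**
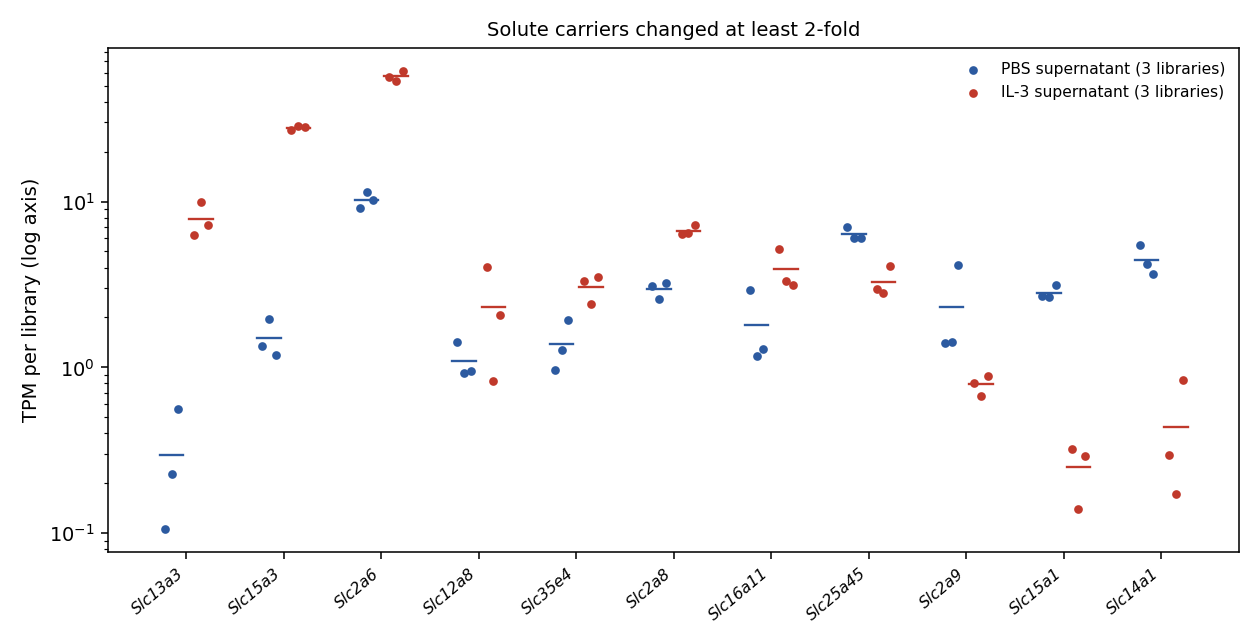
Level of 11 of the 12 genes that passed the test with a change of at least 2-fold, in TPM (transcript abundance scaled for length and library, log axis), with 1 point per library. The points of the 2 groups lie far apart for Slc13a3, Slc15a3, Slc2a6, Slc14a1 and Slc15a1, and they overlap for Slc12a8.

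The promoters of 4 of the genes with large changes are shown: the risers Slc13a3, Slc2a6 and Slc2a8, and the peptide carrier with the opposite direction, Slc15a1. They are not the 4 with the smallest p. Slc15a3, with the smallest p of the genes with large changes, had no entry among the promoters. The gene with the lowest log2 fold change was left out, although its p was smaller than that of Slc2a8. Each is the 250 bases before the RefSeq start (GRCm38.p6, all 4 genes on the minus strand), written 5′ to 3′ in the sense of the gene, and capitals mark the motifs found on either strand.
Slc2a6 (chr2:27027999-27028248): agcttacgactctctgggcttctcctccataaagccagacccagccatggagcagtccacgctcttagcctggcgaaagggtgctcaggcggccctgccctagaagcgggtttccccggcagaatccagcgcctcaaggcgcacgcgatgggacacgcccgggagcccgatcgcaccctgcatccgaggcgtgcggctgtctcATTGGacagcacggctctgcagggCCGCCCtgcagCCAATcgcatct
Slc2a8 (chr2:32982084-32982333): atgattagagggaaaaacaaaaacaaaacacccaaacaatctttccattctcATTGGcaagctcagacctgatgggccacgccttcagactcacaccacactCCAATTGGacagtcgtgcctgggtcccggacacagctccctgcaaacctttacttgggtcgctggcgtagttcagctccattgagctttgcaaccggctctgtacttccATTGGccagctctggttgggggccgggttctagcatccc
Slc13a3 (chr2:165473198-165473447): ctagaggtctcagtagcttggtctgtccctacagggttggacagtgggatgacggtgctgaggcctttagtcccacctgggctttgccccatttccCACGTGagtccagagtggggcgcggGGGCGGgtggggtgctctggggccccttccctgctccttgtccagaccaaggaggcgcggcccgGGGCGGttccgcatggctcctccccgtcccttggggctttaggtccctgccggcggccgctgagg
Slc15a1 (chr14:121505255-121505504): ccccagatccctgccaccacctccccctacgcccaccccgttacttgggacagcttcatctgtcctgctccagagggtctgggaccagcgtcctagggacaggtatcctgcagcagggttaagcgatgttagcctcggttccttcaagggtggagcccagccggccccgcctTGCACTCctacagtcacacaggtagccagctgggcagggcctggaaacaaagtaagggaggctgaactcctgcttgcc
The Slc2a6 sequence held CCAAT on the plus strand and once on the minus strand, and 1 minus-strand GC box (GGGCGG). In the Slc2a8 sequence there were 4 matches of CCAAT, 1 on the plus and 3 on the minus strand, and 2 of them overlap. The Slc13a3 sequence held 2 GC boxes and 1 E-box (CACGTG), which contains the core of the hypoxia response element (ACGTG) on both strands, while the Slc15a1 sequence matched only the metal response element TGCNCNC. None of the 4 windows held AP-1 (TGANTCA), a STAT site with a spacer of 3 (TTCNNNGAA), the STAT6 motif with a spacer of 4, or the GATA letters AGATAAG. Among 32851 RefSeq promoters, searched over the same length and both strands, CCAAT was found in 33.8%, GGGCGG in 32.7%, CACGTG in 6.02%, ACGTG in 16.6%, TGCNCNC in 44.4%, TGANTCA in 6.75%, TTCNNNGAA in 7.02%, the STAT6 motif in 5.85% and AGATAAG in 2.74%. Of the 156 genes, 119 were matched, with 161 promoters. These held GGGCGG in 65.2%, CACGTG in 13.7%, CCAAT in 34.2%, ACGTG in 21.7% and TGCNCNC in 50.9%. They held TGANTCA in 3.11%, TTCNNNGAA in 4.35%, the STAT6 motif in 4.97% and AGATAAG in 1.24%. The 156 genes had passed a threshold on summed counts, while the 32851 promoters were not chosen by counts. The shares thus compare different sets of genes, and whether they differ because of carriers or of expression was not tested. A match is a description of letters and not a binding site.

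Among the 11 carriers of sugars and polyols, 2 rose, 1 fell and 8 did not pass. Slc2a6, a glucose carrier of lysosomal membranes (chr2:27021363-27027998), rose most. It stood at 9.19, 11.4 and 10.2 TPM in PBS supernatant replicates 1, 2 and 3 (the order used throughout) and at 56.8, 53.7 and 61.3 TPM in the IL-3 supernatant replicates. The groups lie far apart, with means of 11.9 ± 1.73 and 63.7 ± 4.24 CPM (mean ± SD, n = 3) and a log2 fold change of 2.42 (SE 0.10, adjusted p = 1.9e-11). Slc2a8, an intracellular glucose carrier, had 3.11, 2.59 and 3.24 TPM with PBS and 6.34, 6.44 and 7.26 TPM with IL-3 supernatant. It rose by 1.08 on the log2 scale without overlap between the groups (SE 0.18, adjusted p = 0.00018). Slc2a9, a carrier of urate, had 1.41, 1.42 and 4.14 TPM with PBS and 0.807, 0.669 and 0.893 TPM with IL-3 supernatant. All 3 IL-3 values were lower, but PBS supernatant replicate 3 stood far above the other PBS libraries. The log2 fold change of -1.48 (SE 0.44, adjusted p = 0.019) became -0.84 without that replicate (adjusted p = 0.216), and the call was also lost without IL-3 supernatant replicate 1 (0.0878) or 2 (0.0809). With limma-voom Slc2a9 did not pass either.

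The main glucose carriers of T cells did not pass the test. Slc2a1 (GLUT1) had 93.9, 83.5 and 89.5 TPM with PBS and 93.2, 100.2 and 89.9 TPM with IL-3 supernatant, and these ranges overlap. In CPM Slc2a1 did not overlap, with 134.2 to 135.6 CPM with PBS and 136.4 to 151.2 CPM with IL-3 supernatant. Its log2 fold change was 0.11 (SE 0.06, adjusted p = 0.18). Slc2a3 (GLUT3) had 48.1, 39 and 48.7 TPM against 42.7, 40.8 and 39 TPM, also overlapping, with a log2 fold change of -0.17 (SE 0.06, adjusted p = 0.051). In CPM Slc2a3 did not overlap either, with 82.7 to 92.9 CPM with PBS and 73.6 to 80.1 CPM with IL-3 supernatant. Because TPM are scaled for transcript length, members of a family can be set against each other. Slc2a6 made up 5.91%, 8.27% and 6.54% of the summed TPM of the 5 Slc2 carriers with PBS supernatant and 28.4%, 26.6% and 30.9% with IL-3 supernatant. In the IL-3 supernatant libraries it stood above Slc2a3, which had 19.7% to 21.4%, and below Slc2a1, which had 45.3% to 49.7%. The summed TPM of the family went from 138 to 156 with PBS to 198 to 202 with IL-3 supernatant. Of the other sugar carriers, Slc37a4, the glucose-6-phosphate carrier of the endoplasmic reticulum, had log2 fold change 0.27 (adjusted p = 0.072) and the myo-inositol carrier Slc5a3 had 0.31 (adjusted p = 0.11), or 0.46 without PBS supernatant replicate 1 (8.66e-05). Slc5a3 also passed with DESeq2 (0.0164), limma-voom (0.04), the replicate block (0.0472) and no filter on low counts (0.000106). The remaining 4 (Slc37a1, Slc37a2, Slc37a3 and Slc50a1) lay between -0.03 and 0.15.

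**Figure D3:**
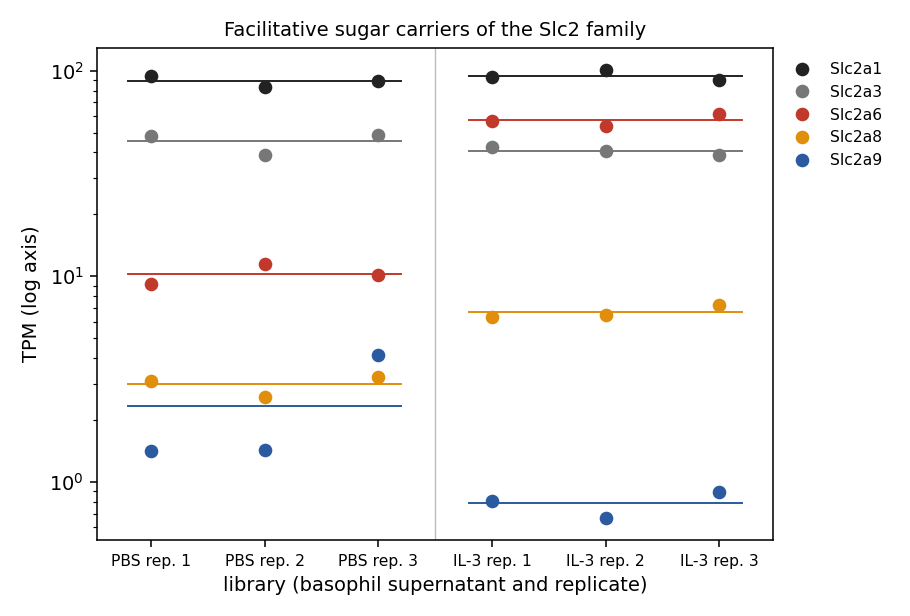
Level of the 5 Slc2 carriers in TPM, with points for single libraries and the mean of each group of 3. Slc2a6 lies between 53.7 and 61.3 TPM with IL-3 supernatant and between 9.19 and 11.4 TPM with PBS supernatant. The values of Slc2a1 and Slc2a3 overlap between the groups in TPM, though not in CPM.

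Of the 6 carboxylate carriers of the plasma membrane, 3 rose, none fell and 3 did not pass by edgeR. DESeq2 also called none lower, and 1 was lower at an unadjusted p under 0.05. Slc13a3, which brings dicarboxylates such as succinate into cells with sodium (chr2:165405028-165473230), had the highest log2 fold change of the 156 genes. Its expected counts, rounded, were 3, 7 and 5 with PBS and 163, 211 and 124 with IL-3 supernatant, or 0.105, 0.229 and 0.56 TPM against 6.27, 9.99 and 7.26 TPM. The transcript was thus close to the detection limit in all 3 PBS libraries and clearly present in all 3 IL-3 libraries. Group means were 0.28 ± 0.111 and 8.08 ± 1.61 CPM, and the log2 fold change reached 4.82 (SE 0.32, adjusted p = 4.1e-09). Slc16a6, a carrier of the monocarboxylate family, had 50.4, 41.3 and 43.9 TPM with PBS and 59.2, 64.2 and 62.3 TPM with IL-3 supernatant. It rose by 0.49 on the log2 scale without overlap (SE 0.08, adjusted p = 0.0001). Of its exon bases, 21.5% overlap Amz2 on the opposite strand, which had 2132 counts in all against 9213 for Slc16a6.

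Slc16a11, another member of that family, had 2.91, 1.18 and 1.29 TPM with PBS and 5.21, 3.34 and 3.15 TPM with IL-3 supernatant. The groups do not overlap, and the log2 fold change was 1.07 (SE 0.34, adjusted p = 0.026), but the call was lost without PBS supernatant replicate 2 (0.0672) or 3 (0.0936) or IL-3 supernatant replicate 1 (0.142). Its neighbour Slc16a13, whose gene lies 372 bases away, had log2 fold change 0.15 (adjusted p = 0.37). The lactate carriers Slc16a1 (MCT1) and Slc16a3 (MCT4) were the most abundant of the class. Slc16a1 had 128, 120.4 and 119 TPM with PBS and 111, 119.9 and 112 TPM with IL-3 supernatant, a log2 fold change of -0.13 (SE 0.05, adjusted p = 0.094). Slc16a3 had 106, 103 and 101 TPM with PBS and 131, 124 and 109 TPM with IL-3 supernatant, all 3 above the PBS values. In CPM Slc16a3 overlapped, with IL-3 supernatant replicate 3 at 98.1 CPM and PBS supernatant replicate 1 at 100.8 CPM. Its log2 fold change was 0.18 (SE 0.07, adjusted p = 0.057), and it was called at adjusted p values of 0.0414 without PBS supernatant replicate 1 and 0.00761 without IL-3 supernatant replicate 3. Slc16a3 also passed with DESeq2's size factors (0.0486), scaling to total counts alone (0.0356) and no filter on low counts (0.0217).

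In the class of amines, osmolytes, peptides and amino acids, 3 of 12 genes rose, 4 fell and 5 did not pass. Slc15a3, which moves histidine and small peptides out of lysosomes and endosomes (chr19:10839727-10859362), had 1.35, 1.95 and 1.18 TPM with PBS and 27, 28.4 and 28 TPM with IL-3 supernatant. The groups are far apart and tight, with 1.97 ± 0.477 against 32.9 ± 1.02 CPM and a log2 fold change of 4.05 (SE 0.15, adjusted p = 2.8e-12). On its exons, 28.1% of the bases overlap Tmem132a on the opposite strand, and the use of strand in counting is not given in the sources used here. Tmem132a itself had 3, 8 and 7 counts with PBS and 77, 75 and 92 with IL-3 supernatant, 262 in all against 2123 for Slc15a3, so the 2 genes' reads cannot be fully told apart.

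The plasma membrane peptide carrier Slc15a1 (PEPT1, chr14:121459621-121505252) went the other way, with 2.68, 2.66 and 3.13 TPM with PBS and 0.321, 0.14 and 0.291 TPM with IL-3 supernatant. The counts behind these values were 76, 81 and 88 against 10, 5 and 9. Mean levels were 4.58 ± 0.402 and 0.4 ± 0.154 CPM, and the gene fell by a log2 fold change of -3.51 (SE 0.36, adjusted p = 1e-06). Slc15a4, the other endolysosomal carrier of histidine and peptides, had 12.1, 12.5 and 14 TPM against 13.8, 12.4 and 10.4 TPM, and did not pass (log2 fold change -0.09, SE 0.12, adjusted p = 0.61). The make-up of the family therefore differed between the groups: Slc15a3 held 6.48% to 11.4% of the summed TPM of the 3 genes with PBS and 65.6% to 72.4% with IL-3 supernatant. Slc15a4 held 73.1% to 76.4% and then 26.8% to 33.6%, and Slc15a1 held 15.5% to 17.1% and then 0.343% to 0.78%.

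Slc14a1, the urea transporter of red cells (UT-B), had the lowest log2 fold change of the 156 genes. Its TPM were 5.49, 4.21 and 3.66 with PBS and 0.294, 0.171 and 0.838 with IL-3 supernatant, from 139, 121 and 97 counts against 10, 4 and 17. All 3 PBS libraries stood well above all 3 IL-3 libraries, with 6.66 ± 1.1 against 0.521 ± 0.344 CPM (log2 fold change -3.68, SE 0.38, adjusted p = 1.6e-06). The listed red cell genes summed to at most 0.556 CPM in any library. Slc6a9, the glycine transporter GLYT1, rose from 11.4, 8.15 and 7.86 TPM to 19.7, 17.8 and 15.9 TPM without overlap (log2 fold change 0.95, SE 0.13, adjusted p = 5e-05). Of its exon bases, 27.8% overlap Ccdc24 on the opposite strand.

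The Slc43 amino acid carriers moved in opposite directions. Slc43a2 (LAT4) fell from 13.4, 13.6 and 15 TPM to 8.43, 8.33 and 10.9 TPM without overlap (log2 fold change -0.62, SE 0.10, adjusted p = 8.9e-05). Slc43a1 (LAT3) had 3.82, 2.45 and 4.21 TPM with PBS and 5.21, 4.79 and 5.67 TPM with IL-3 supernatant. The groups did not overlap and its log2 fold change was 0.58 (SE 0.20, adjusted p = 0.04), with the call lost without PBS supernatant replicate 2 (0.168) or IL-3 supernatant replicate 1 (0.0651), 2 (0.0522) or 3 (0.167). Neither DESeq2 nor limma-voom called Slc43a1. Slc36a1, a proton-coupled carrier of small amino acids in lysosomes, fell by 0.42 on the log2 scale (adjusted p = 0.011), a call lost without IL-3 supernatant replicate 2 (0.052). The abundant taurine carrier Slc6a6 had 121, 112 and 116 TPM with PBS and 125, 121 and 132 TPM with IL-3 supernatant, and did not pass (log2 fold change 0.09, adjusted p = 0.20). Slc16a10, Slc18a2, the vesicular monoamine carrier, and Slc36a4 did not pass either, with log2 fold changes of 0.12, 0.39 and 0.01. Among the 16 genes of the left-out families Slc1, Slc3, Slc7 and Slc38 with 200 or more counts, 7 were higher and none lower by edgeR or DESeq2 (0 also at an unadjusted p under 0.05), with a median log2 fold change of 0.14, and no test of the difference from the carriers described here was made. Their called share was 43.8%, beside 30.9% of all genes tested.

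The 33 carriers placed in the mitochondrial class, all of the Slc25 family, held the largest part of the transcript. Of these 9 rose, 4 fell and 20 did not pass, with a median log2 fold change of 0.13. The ADP/ATP carrier Slc25a5 was the most abundant of all 156 genes, with 1208, 1185 and 1261 TPM with PBS and 1211, 1215 and 1284 TPM with IL-3 supernatant. These ranges overlap, and its log2 fold change was -0.00 (SE 0.05, adjusted p = 0.98). The phosphate carrier Slc25a3 had 677, 677 and 755 TPM with PBS and 783, 769 and 822 TPM with IL-3 supernatant. All 3 IL-3 values were higher, but the gene did not pass (log2 fold change 0.14, SE 0.05, adjusted p = 0.061), and its adjusted p was 0.0476 without PBS supernatant replicate 3. Slc25a3 also passed with DESeq2 (0.0298), DESeq2's size factors (0.0499), scaling to total counts alone (0.0447) and no filter on low counts (0.0465). Together these 2 genes made up 30.2% to 32.3% of the summed TPM of the 156 genes, which lay between 5865 and 6510. Slc25a4, the second ADP/ATP carrier, also did not pass (log2 fold change 0.05, adjusted p = 0.50).

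The riser with the smallest p was the aspartate-glutamate carrier Slc25a12, a part of the malate-aspartate shuttle. It had 37.6, 34.2 and 35 TPM with PBS and 50.4, 45.5 and 50.4 TPM with IL-3 supernatant, without overlap (log2 fold change 0.42, SE 0.07, adjusted p = 0.00013). Its paralogue Slc25a13 rose by 0.30 (adjusted p = 0.0098), while Slc25a11, the oxoglutarate-malate carrier of the same shuttle, did not pass (0.13, adjusted p = 0.22). The pyrimidine nucleotide carrier Slc25a33 rose by 0.48 (adjusted p = 0.0021) and the citrate carrier Slc25a1 by 0.31 (adjusted p = 0.0066), with Slc25a1 at 66.3, 52.1 and 52.1 TPM against 81.1, 62.6 and 73.8 TPM. On the TPM scale the last pair of ranges overlaps, and in CPM it does not.

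The other 4 risers were less stable. Slc25a17 rose by 0.23 (adjusted p = 0.013), a call lost without IL-3 supernatant replicate 2 (0.0622). Slc25a38, the mitochondrial glycine carrier, rose by 0.34 (adjusted p = 0.015), lost without PBS supernatant replicate 2 (0.067) or IL-3 supernatant replicate 3 (0.0532). Slc25a30 rose by 0.33 (adjusted p = 0.029), lost without PBS supernatant replicates 1 (0.0632) or 3 (0.0678) or IL-3 supernatant replicates 1 (0.13) or 3 (0.0679). Its call was also lost with DESeq2 and with the replicate block. Slc25a20, the carnitine-acylcarnitine carrier, rose by 0.30 (adjusted p = 0.049) with overlapping CPM. Its call was lost without PBS supernatant replicates 2 (0.112) or 3 (0.154) or IL-3 supernatant replicates 1 (0.0967) or 3, where the log2 fold change was 0.19 (0.25). Neither DESeq2 nor limma-voom nor the replicate block called Slc25a20.

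Of the 4 that fell, Slc25a45 fell most, from 7.04, 6 and 6.01 TPM to 2.99, 2.8 and 4.09 TPM, without overlap (log2 fold change -1.06, SE 0.19, adjusted p = 0.0003). Slc25a42, a carrier of coenzyme A, went from 7.62, 7.27 and 8.74 TPM to 4.15, 4.28 and 5.43 TPM (log2 fold change -0.74, adjusted p = 0.0011). Slc25a53 fell by 0.66 on the log2 scale (adjusted p = 0.0021). Slc25a23, a calcium-regulated ATP-magnesium/phosphate carrier, fell by 0.51 (adjusted p = 0.015), a call lost without PBS supernatant replicate 3 (0.0774) or IL-3 supernatant replicate 1 (0.0557) or 2 (0.0523). The fallers were all low transcripts, at most 11 TPM in any library, while the risers ranged from 16.5 to 94.1 TPM. Carriers without a call included the dicarboxylate carrier Slc25a10 (log2 fold change 0.06), the folate carrier Slc25a32 (0.09) and the glutathione carrier Slc25a39 (0.14, adjusted p = 0.077).

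**Figure D4:**
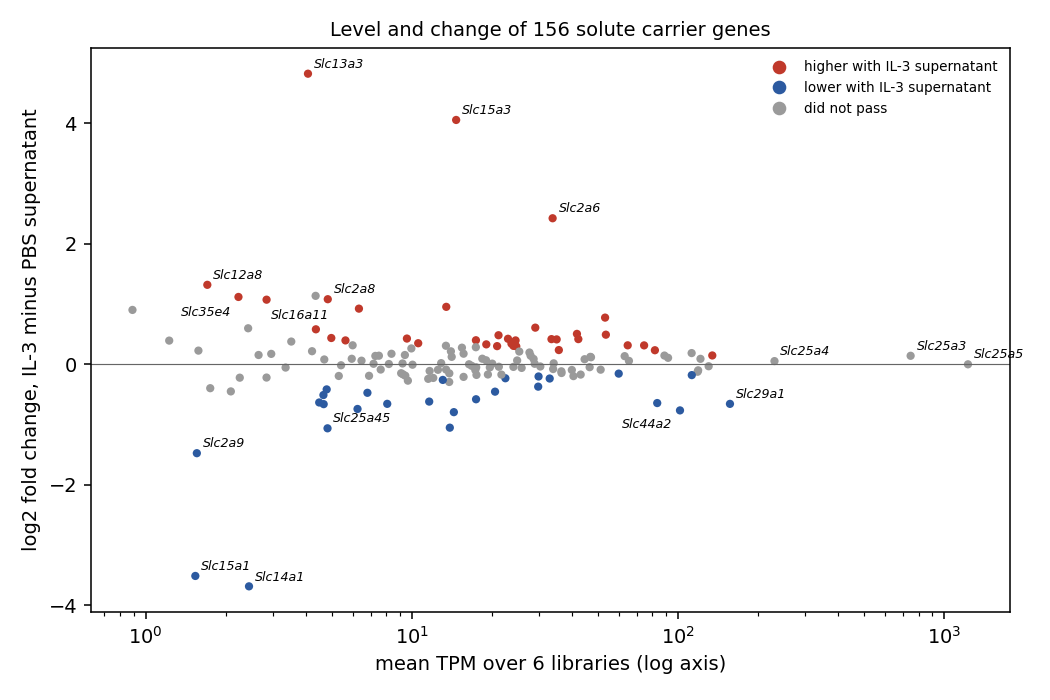
Log2 fold change against the mean TPM over the 6 libraries (log axis) for the 156 genes, coloured by call. Slc25a5, Slc25a3 and Slc25a4, the 3 most abundant genes, lie near 0, while the abundant Slc29a1 and Slc44a2 lie at -0.66 and -0.77.

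Zinc carriers comprise the Slc39 family, most members of which bring zinc into the cytosol, and the Slc30 family, most members of which remove it. Of 17 genes, 5 rose, 3 fell and 9 did not pass. Slc39a14 (ZIP14) rose from 28.9, 31.1 and 32.5 TPM to 40.8, 38.3 and 38.3 TPM without overlap (log2 fold change 0.41, SE 0.06, adjusted p = 7.5e-05). Slc39a1 (ZIP1) rose from 66, 65.6 and 66 TPM to 80, 81.9 and 87.8 TPM (log2 fold change 0.31, SE 0.06, adjusted p = 0.00059). The plasma membrane exporter Slc30a1 (ZnT1) fell from 6.45, 5.16 and 5.13 TPM to 3.07, 4.55 and 3.62 TPM, again without overlap (log2 fold change -0.66, SE 0.13, adjusted p = 0.0011). Slc39a4 rose by 0.40 (adjusted p = 0.008), a call lost without IL-3 supernatant replicate 1 (0.0558). The 4 other calls were small and each was lost without some of the libraries.

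Slc30a9 rose by 0.23 (adjusted p = 0.023), and lost its call without PBS supernatant replicates 2 (0.0905) or 3 (0.0742) or IL-3 supernatant replicate 1 (0.119). Slc39a7 (ZIP7), the most abundant of the class at 123 to 143 TPM, rose by 0.14 (adjusted p = 0.047). On its exons, 80.65% of the bases overlap Gm20427 on the same strand, which had 494 counts in all against 18083 for Slc39a7. The call of Slc39a7 held only without PBS supernatant replicate 1 among the 6 fits that left out a library, with adjusted p from 0.0678 to 0.175 in the other 5. With the replicate number as a block its adjusted p was 0.0973. Slc39a6 fell by 0.16 (adjusted p = 0.041), lost without PBS supernatant replicates 2 (0.178) or 3 (0.0707) or any IL-3 supernatant replicate (0.14, 0.11 and 0.058). Slc30a4 fell by 0.37 (adjusted p = 0.043), lost without PBS supernatant replicate 3 (0.0804) or IL-3 supernatant replicates 1 (0.123) or 3 (0.132), and its log2 fold change was -0.24 without PBS supernatant replicate 1. Slc39a10 (ZIP10), with 44.2 to 51.4 TPM, did not pass (log2 fold change -0.05, adjusted p = 0.63).

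For iron, copper, magnesium and heme, 1 of 7 carriers rose, 2 fell and 4 did not pass. Slc11a2 (DMT1), which imports ferrous iron, fell from 20.7, 24.7 and 26.4 TPM to 17.5, 18.1 and 15.8 TPM without overlap (log2 fold change -0.46, SE 0.09, adjusted p = 0.0009). The magnesium carrier Slc41a1 rose by 0.35 (adjusted p = 0.013), a call lost without PBS supernatant replicate 3 (0.0529) or IL-3 supernatant replicates 1 (0.0731) or 3 (0.0643). The copper importer Slc31a1 (CTR1) fell by 0.20 (adjusted p = 0.037). It lost its call without PBS supernatant replicates 1 (0.109) or 3 (0.065) or any IL-3 supernatant replicate (0.13, 0.0707 and 0.0788), with the replicate block (0.07) and with scaling to total counts alone (0.0824). The mitochondrial iron carriers Slc25a37 and Slc25a28 and the heme carrier Slc48a1 did not pass, with log2 fold changes of 0.01, -0.10 and 0.14.

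Among 18 metal handling genes that are not solute carriers, 6 were higher, 1 was lower and 11 did not pass. The called share was 38.9%, beside 30.9% of all genes tested (14.8% higher and 16.1% lower), and the difference was not tested. The metallothioneins, which bind zinc and copper, rose: Mt1 went from 53.4, 43.1 and 52.1 TPM to 125, 129 and 102 TPM (log2 fold change 1.24, SE 0.11, adjusted p = 2.2e-07). Mt2 rose by 1.05 (SE 0.16, adjusted p = 6.5e-05), from 18.8 to 30.9 TPM up to 47.2 to 53 TPM. The heme oxygenase Hmox1 rose by 1.02 (SE 0.14, adjusted p = 2e-05) and the cytosolic aconitase and iron regulatory protein Aco1 by 0.36 (adjusted p = 0.00086). Alas1 rose by 0.26 (adjusted p = 0.019; lost without PBS supernatant replicate 3 at 0.0954, or IL-3 supernatant replicates 1 at 0.0731 or 3 at 0.0537). The zinc-sensing factor Mtf1 rose by 0.21 (adjusted p = 0.038; lost without PBS supernatant replicate 3 at 0.138 or any IL-3 supernatant replicate, at 0.0661, 0.0713 and 0.101). The transferrin receptor Tfrc and the ferritin chains Fth1 and Ftl1 did not pass, with log2 fold changes of -0.03, -0.07 and -0.04.

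The 20 carriers of protons, sodium, potassium, chloride, bicarbonate and calcium included 5 risers and 3 fallers, and 12 did not pass. Slc12a4 (KCC1), a potassium-chloride cotransporter, rose from 31.3, 27 and 28.7 TPM to 39.1, 36.1 and 38.4 TPM (log2 fold change 0.42, SE 0.07, adjusted p = 0.00019). The sodium-potassium-chloride cotransporter Slc12a2 (NKCC1) did not pass (log2 fold change 0.09, adjusted p = 0.45).

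Slc12a8 had 1.43, 0.923 and 0.949 TPM with PBS and 4.02, 0.826 and 2.08 TPM with IL-3 supernatant. IL-3 supernatant replicate 2 stood as low as the PBS libraries, so the groups overlap, although the gene passed the test with a log2 fold change of 1.32 (SE 0.45, adjusted p = 0.038). The log2 fold change was 0.88 without IL-3 supernatant replicate 1 (adjusted p = 0.246), and the call was also lost without PBS supernatant replicates 2 (0.109) or 3 (0.135) or IL-3 supernatant replicate 3 (0.0998). With limma-voom Slc12a8 did not pass either.

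The 3 carriers of the Slc4 family that passed were all higher; most members of this family carry bicarbonate. Slc4a7 (NBCn1) rose from 26.6, 20 and 21.9 TPM to 32.7, 37.4 and 35.8 TPM without overlap (log2 fold change 0.61, SE 0.08, adjusted p = 4.6e-05). Slc4a11 rose from 4.12, 5.33 and 3.44 TPM to 8.17, 8.71 and 8.17 TPM (log2 fold change 0.92, SE 0.14, adjusted p = 7.9e-05). Slc4a8 had 0.43 (adjusted p = 0.027) and overlapped in TPM because PBS supernatant replicate 3 had 7.07 TPM; its call was lost without PBS supernatant replicates 1 (0.0728) or 2 (0.0786) or any IL-3 supernatant replicate (0.062, 0.0538 and 0.0688). The anion exchanger Slc4a2 did not pass (0.06, adjusted p = 0.63).

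Sodium-proton exchangers of the Slc9 group that passed were lower. Slc9b2 fell from 23, 20.2 and 20.4 TPM to 14.5, 12.1 and 14.3 TPM (log2 fold change -0.58, SE 0.11, adjusted p = 0.00088). Slc9a8, of the Golgi membrane, fell by 0.24 (adjusted p = 0.024), with the call lost without PBS supernatant replicates 2 (0.0787) or 3 (0.0923) or IL-3 supernatant replicate 2, where the log2 fold change was -0.15 (0.158). Both phosphate carriers stayed without a call: Slc20a1, an abundant gene at 126 to 134 TPM, had log2 fold change -0.03 (adjusted p = 0.68) and Slc20a2 had -0.23 (adjusted p = 0.08). DESeq2 called 0 of these 2 as well, and 1 had an unadjusted edgeR p under 0.05.

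Of 5 carriers of nucleosides and nucleobases, 2 rose, 2 fell and 1 did not pass. Slc29a1 (ENT1), the equilibrative nucleoside carrier of the plasma membrane, was the most abundant. It fell from 185, 185 and 201 TPM to 126, 116 and 127 TPM, a clear gap between the groups (log2 fold change -0.66, SE 0.06, adjusted p = 4.3e-07). The sodium-coupled Slc28a2 (CNT2) fell from 17.6, 17 and 19.8 TPM to 10.4, 10.3 and 11.1 TPM (log2 fold change -0.80, SE 0.09, adjusted p = 3.3e-06). The nucleobase carrier Slc43a3 (ENBT1) rose from 42.8, 33.2 and 40.6 TPM to 71.5, 62 and 69 TPM, also without overlap (log2 fold change 0.77, SE 0.08, adjusted p = 5.8e-07). Its gene lies 72985 bases from that of Slc43a1 on chromosome 2. Slc29a2 (ENT2) had 0.43 (adjusted p = 0.016), a call lost without PBS supernatant replicates 1 (0.051) or 3 (0.0649) or IL-3 supernatant replicate 2 (0.0572). The lysosomal Slc29a3 did not pass (0.19, adjusted p = 0.11) and had an adjusted p of 0.00267 without PBS supernatant replicate 1 and of 0.0287 with no filter on low counts.

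Of 4 carriers of lipids and choline, 2 fell, 2 did not pass and none rose by edgeR or DESeq2, also at an unadjusted p under 0.05. The 2 that fell are choline carriers. Slc44a2, which also carries a neutrophil alloantigen in humans, fell from 127, 119.5 and 135 TPM to 80.3, 71.1 and 76.8 TPM, with all IL-3 values under all PBS values (log2 fold change -0.77, SE 0.06, adjusted p = 3.1e-08). Slc44a1 (CTL1) fell from 5.33, 4.62 and 6.31 TPM to 3.33, 3.2 and 4.13 TPM (log2 fold change -0.64, SE 0.14, adjusted p = 0.0027). The fatty acid transport genes Slc27a4 and Slc27a1, which complete the class, did not pass (0.00 and -0.40). In the vitamin class, 1 of 5 carriers rose, 1 fell and 3 did not pass. The thiamine carrier Slc19a2 rose from 21.2, 16.9 and 20.4 TPM to 23.5, 27.5 and 28.1 TPM (log2 fold change 0.42, SE 0.09, adjusted p = 0.0016). The reduced folate carrier Slc19a1, at 114 to 129 TPM with PBS and 100.2 to 110.0 TPM with IL-3 supernatant, fell by 0.18 (adjusted p = 0.026). That call was lost without PBS supernatant replicates 2 (0.0947) or 3 (0.116) or IL-3 supernatant replicates 1 (0.0693) or 2 (0.134), and with scaling to total counts alone (0.0707). The vitamin C carrier Slc23a2, the biotin and pantothenate carrier Slc5a6 and the riboflavin carrier Slc52a2 did not pass (-0.18, -0.04 and 0.02).

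Carriers of nucleotide sugars and acetyl-CoA, which supply the Golgi and endoplasmic reticulum, numbered 15, of which 3 rose, 1 fell and 11 did not pass. The CMP-sialic acid carrier Slc35a1 rose from 20.8, 20.4 and 21.4 TPM to 26.1, 29.6 and 28.7 TPM without overlap (log2 fold change 0.39, SE 0.09, adjusted p = 0.0032). The acetyl-CoA carrier Slc33a1 rose by 0.30 (adjusted p = 0.013), lost without IL-3 supernatant replicate 1 (0.0542). Slc35a5 rose by 0.39 (adjusted p = 0.045), and the call passed only without IL-3 supernatant replicate 1 among the fits that left out a library (0.0561 to 0.192 in the other 5). Neither DESeq2 nor limma-voom nor the replicate block called Slc35a5. Slc35b4 fell by 0.23 (adjusted p = 0.03), and its call passed only without PBS supernatant replicate 1 (0.0621 to 0.112 in the other 5). Slc35d3 had 4.56, 1.21 and 2.37 TPM with PBS and 6.38, 5.97 and 5.6 TPM with IL-3 supernatant. Its log2 fold change of 1.13 (SE 0.38) was over 2-fold in size and did not pass (adjusted p = 0.063). It passed without PBS supernatant replicate 1, where it was 1.71 (1.33e-05), and without replicate 2, where it was 0.81 (0.0183), as well as with DESeq2 (0.00174), limma-voom (0.00724), the replicate block (0.0128) and no filter on low counts (3.46e-07).

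None of the 5 carriers of organic cations and anions passed by edgeR or DESeq2, 1 passed by limma-voom, and 1 had an unadjusted edgeR p under 0.05. The carnitine carrier Slc22a5 had log2 fold change -0.19 (adjusted p = 0.27). The vesicular glutamate carrier Slc17a6 had 0.942, 0.569 and 0.334 TPM with PBS and 1.14, 1.2 and 1.17 TPM with IL-3 supernatant, with no overlap and a log2 fold change of 0.90 (adjusted p = 0.075). It passed without PBS supernatant replicate 1, at 1.31 (0.0191), and with limma-voom (0.0486). Among the 14 genes with no transported substrate or none assigned, 1 rose, 3 fell and 10 did not pass. Slc35e4 rose from 0.97, 1.27 and 1.92 TPM to 3.31, 2.41 and 3.5 TPM without overlap (log2 fold change 1.12, SE 0.28, adjusted p = 0.0055). The scaffold Slc9a3r1 (NHERF1) fell from 96.9, 96.2 and 110.3 TPM to 68.9, 60.3 and 68.3 TPM (log2 fold change -0.64, SE 0.07, adjusted p = 1.8e-06). The pseudogene Slc2a4rg-ps fell by 0.47 (adjusted p = 0.0093). Slc10a7 fell by 0.26 (adjusted p = 0.034), a call that passed only without PBS supernatant replicate 1 among the 6 (0.0637 to 0.131 in the other 5).

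Opposite calls were found in 10 of the 38 families, each with at least 1 riser and 1 faller. The 38 include families with a single carrier, which cannot hold both. Large families such as Slc25 (35 carriers) and Slc35 (22) have more room for both, as 14.8% of all genes tested were higher and 16.1% lower. A share for other groups of genes was not computed. The number of families with opposite calls was 6 without PBS supernatant replicate 2, 4 without PBS supernatant replicate 3, 6 without IL-3 supernatant replicate 1 and 5 without IL-3 supernatant replicate 2. Slc15, Slc25 and Slc43 were among these families in each fit that left out a library. Among the 10 were Slc2 (2 higher and 1 lower among its carriers), Slc15 (1 and 1), Slc19 (1 and 1), Slc25 (9 and 4), Slc29 (1 and 1), Slc30 (1 and 2), Slc35 (3 and 1), Slc39 (4 and 1) and Slc43 (2 and 1). The summed TPM of a family could still differ between the groups without overlap. It was 16.1 to 18.3 with PBS and 38.7 to 41.2 with IL-3 supernatant for Slc15, 49.3 to 60 and 75.2 to 85.5 for Slc43, 216 to 232 and 158 to 169 for Slc29, and 124 to 142 and 74.3 to 83.7 for Slc44. For Slc25 it was 2798 to 3040 and 3087 to 3231. Across the 156 genes, the Pearson correlation of log2(TPM + 1) was 0.988 to 0.993 between libraries of a group and 0.932 to 0.944 between groups. This is over genes of shared libraries, which are not independent replicates.

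**Figure D5:**
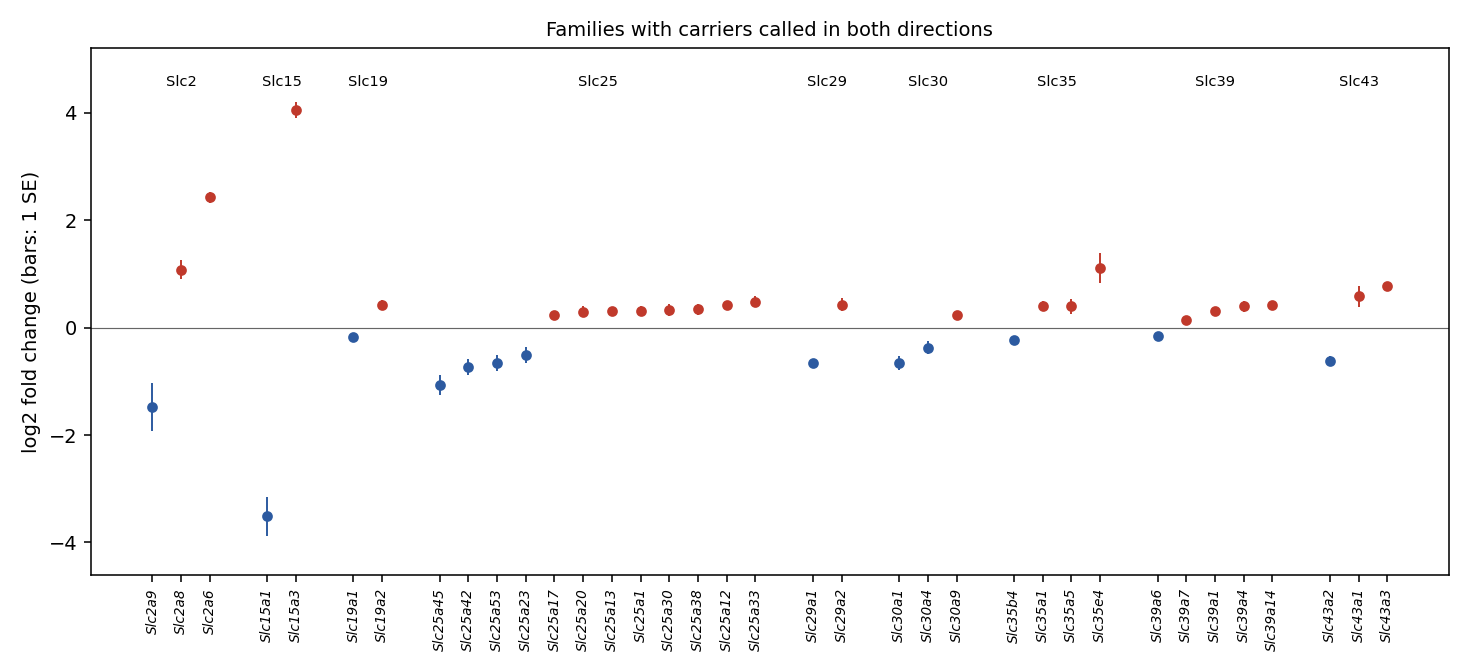
Log2 fold change of called genes in 9 families that hold both a riser and a faller, with the standard error as bars. Slc15 shows the widest spread, from -3.51 for Slc15a1 to 4.05 for Slc15a3.

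Partners and regulators of carriers were a separate list of 23 genes, of which 21 were tested, 2 rose, 5 fell and 14 did not pass. The called share was 33.3% of those tested, near the 30.9% of all genes tested. The chaperones of the lactate carriers differed in direction: Bsg (basigin) rose from 442, 427 and 425 TPM to 568, 553 and 552 TPM (log2 fold change 0.34, SE 0.05, adjusted p = 4.2e-05). Emb (embigin) fell from 145, 145 and 149 TPM to 92, 103 and 100.1 TPM (log2 fold change -0.59, SE 0.06, adjusted p = 6.8e-07). Stk39 (SPAK), a kinase that acts on the Slc12 cotransporters, fell from 154, 139.95 and 146 TPM to 67, 67 and 73.9 TPM (log2 fold change -1.10, SE 0.05, adjusted p = 7.9e-11). Txnip, which promotes internalisation of glucose carriers, fell from 49.1, 42.7 and 51.7 TPM to 31.9, 29.5 and 35.1 TPM (log2 fold change -0.64, SE 0.09, adjusted p = 1.8e-05). Of the other called partners, Mcu, the pore of the mitochondrial calcium uniporter, rose by 0.39 (adjusted p = 0.0017) and the kinase Wnk1 fell by 0.30 (adjusted p = 0.00027). Mpc1, a subunit of the mitochondrial pyruvate carrier, fell by 0.24 (adjusted p = 0.045) with overlapping CPM. Its call was lost without PBS supernatant replicates 2 (0.214) or 3 (0.0831) or IL-3 supernatant replicates 1 (0.159) or 2 (0.19).

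At the 200-count threshold, the genes just inside were Slc12a8 with 205 counts, Slc17a6 with 232 and Slc2a9 with 234. Just outside were Slc25a27 with 195, Slc25a29 with 190 and the creatine carrier Slc6a8 with 189. Exons of 49 of the 156 genes overlap those of another gene, and 36 had a fractional expected count in at least 1 library, which shows reads shared with other transcripts.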

How the data were processed

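Expected counts per gene and TPM (transcript abundance scaled for length and library) per gene were used as deposited by the authors, the TPM of PBS supernatant replicate 2 being deposited per isoform and summed per gene with GENCODE M21 (99.67% of its TPM matched). Per the submitters' processing notes, RSEM 1.2.12, Bowtie2 2.2.0, edgeR 3.20.9 and GRCm38 were used (roles and strand setting: not given in the sources used here). Libraries were made from poly(A) RNA, per the labels' protocols. Symbols matched 46005 of 46517 identifiers.

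Expected counts were rounded and tested with edgeR 4.0.16 in R 4.3.3 (filterByExpr, TMM, robust quasi-likelihood fit, 1 term for group) on 12407 genes, with Benjamini-Hochberg adjustment over all of them and a threshold of 0.05. All 156 members passed the filter. CPM use TMM-scaled library sizes, and SE were derived from the F statistic. The fit was tested on simulated data. Alternatives used limma 3.58.1 and DESeq2 1.42.0.

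The members, substrate classes and gene lists were chosen with earlier results of these data known. Named were the members changed at least 2-fold, the 2 most abundant and the 2 with the smallest p in each class, a panel of well-known carriers and those next to the threshold, 68 in all without those outside it. Further called members, and list genes beyond the 4 with the smallest p, were named after their values were seen, and 4 genes were put in the class without a substrate once the symbols were read. Promoters came from RefSeq (GRCm38.p6), exons from GENCODE. Some genes of the rule and of the lists are not reported here.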

Additional observations from a re-analysis of the deposited data

How the results depend on the processing

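Each result was recomputed under 17 alternatives, and no called direction reversed among the 195 members and list genes tried. Of the 61 called members, 13 (7 higher and 6 lower) passed in every one, and 12 uncalled members passed in at least 1. DESeq2 lost the calls of Slc25a20, Slc25a30, Slc4a8, Slc35a5, Slc43a1, Slc39a6, Slc31a1, Slc35b4 and Slc10a7. With limma-voom, Slc25a20, Slc35a5, Slc43a1, Slc12a8 and Slc2a9 did not pass. The replicate block lost those of Slc25a20, Slc25a30, Slc35a5, Slc39a7, Slc39a6, Slc30a4, Slc31a1, Slc35b4 and Slc10a7. Scaling to total counts alone lost those of Slc39a6, Slc30a4, Slc31a1, Slc35b4, Slc19a1 and Slc10a7. With limma on log2 TPM from 5 libraries (PBS supernatant replicate 2 left out, so fewer samples), 17 members were higher and 16 lower with a pseudocount of 1, 17 and 14 with 0.1, and 8 and 6 without a filter on low values. Slc35e4, Slc30a1, Slc19a2, Slc25a1 and Slc25a13 lost their calls in each of these 3 fits. They had kept them in all 6 fits that left out a library. At an adjusted p below 0.01 the counts were 21 and 16. Leaving out each library in turn gave 24 to 37 higher and 17 to 27 lower members. The same range was 2 to 3 higher and 4 to 5 lower for carrier partners, and 4 to 7 higher and 0 to 1 lower for metal handling genes. TPM without a filter gave 3 lower partners and 3 higher metal handling genes, and each of the 3 limma fits on TPM gave 0 lower metal handling genes, against 1 by edgeR and DESeq2, with 1 (a filter) or 3 (no filter) at an unadjusted p under 0.05. Other scalings moved the median of all genes by 0.0064 to 0.021 on the log2 scale. The causes were not tested.

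Whether libraries of the same replicate number share a mouse or culture is not in the labels. Libraries of the same number correlated in their deviations from the group means by -0.148, 0.052 and 0.255. Those of different numbers correlated by -0.284 to 0.256. Deviations from a mean of 3 libraries depend on each other, so these values cannot decide whether the libraries are paired. With the replicate number as a block, 33 members were higher (31 of them among the 35) and 21 lower (all 21 among the 26). Depth limits the low members, those of fewer than 100 counts in a group.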
